A study of Mus musculus with 3 samples.

Results

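The matricellular and adhesive glycoproteins examined here comprised 7 genes, Edil3, Mfge8, Tnc, Tnxb, Postn, Fn1 and Sparc, which were taken by gene symbol from the 32285 genes in the single-cell count tables; each symbol matched a single row. The cells came from flexor digitorum longus (FDL) tendons of mice, with 16 tendons pooled into each library and 1 library per group. The group called 6 M WT carried no Scx-Cre (Scx-Cre-; DTR F/+), and the group called 6 M DTR carried it (Scx-Cre+; DTR F/+), so that Cre driven by the Scleraxis promoter removed a stop cassette and let Scleraxis-lineage cells make the diphtheria toxin receptor. Both received 5 injections of diphtheria toxin. Their sample labels give an age of 3 months. By the study's account the toxin was given at 3 months of age and the tendons were taken 3 months later, at 6 months. The third group, 21 M B6, was C57BL/6J mice of 21 months without the transgene or the toxin. The strain background of the Scx-Cre line is not stated, so that of the other groups may differ from C57BL/6J. They are written WT, DTR and B6 from here on. The Scleraxis promoter also marks cells outside the tendon proper, and the toxin spares any cell in which Cre did not act. Tissue of WT was digested for 120 min and that of the other groups for 90 min, so digestion time and genotype or age cannot be told apart.

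Matricellular proteins are secreted into the matrix but mainly regulate how cells adhere to and remodel it, rather than bearing load themselves. In tendon, a tissue of aligned type I collagen fibrils made by tenocytes and wrapped by a sheath, the epitenon, they take part in fibril assembly, in the response to loading and in repair. Edil3 and Mfge8 are relatives that carry discoidin-like domains and bind αv integrins, and Mfge8 bridges dying cells to phagocytes. The tenascins Tnc and Tnxb are large glycoproteins of which Tnc is typical of growing, loaded or injured tendon, and Tnxb of the mature fibril surface. Postn and Sparc bind collagen and influence its cross-linking and assembly, and Fn1 encodes fibronectin, the scaffold on which collagen and several of the others are laid down.

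The promoters of both tenascins are shown because these genes took opposite places across single tenocytes of DTR, as described further on. The 250 bases before the start of Tnc (chr4:64047016-64047265, minus strand, the more upstream of its listed starts) and of Tnxb (chr17:34670285-34670534, plus strand) are given 5′ to 3′ from RefSeq on GRCm38.p6. Capitals mark CANNTG, the E-box, which is the general motif of basic helix-loop-helix factors such as Scleraxis and reads the same on both strands.
Tnc: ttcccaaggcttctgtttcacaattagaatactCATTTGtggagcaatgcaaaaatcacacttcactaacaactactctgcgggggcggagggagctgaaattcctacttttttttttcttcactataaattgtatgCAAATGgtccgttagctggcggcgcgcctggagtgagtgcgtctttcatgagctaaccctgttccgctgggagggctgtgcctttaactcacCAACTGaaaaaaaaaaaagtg
Tnxb: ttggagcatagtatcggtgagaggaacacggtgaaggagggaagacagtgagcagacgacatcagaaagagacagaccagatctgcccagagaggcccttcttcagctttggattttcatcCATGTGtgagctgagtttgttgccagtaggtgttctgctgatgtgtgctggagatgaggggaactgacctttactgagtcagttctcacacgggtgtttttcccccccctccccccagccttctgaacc
Tnc held 3 matches and Tnxb held 1. Of 32851 promoters of the same length, 66.2% held at least 1 match and 12.2% at least 3. Of the other genes found in the RefSeq table, Sparc held 2 matches, Mfge8 held 1 and Postn held 0; Edil3 and Fn1 were not in the table. A match is a description of letters, not evidence of a bound site.

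The libraries WT, DTR and B6 held 8357, 6554 and 4798 cells after filtering, with a median of 13008, 12328 and 12914 unique molecular identifiers (UMIs) per cell. Cells were assigned to classes by marker genes. The cells gated as tenocyte-like numbered 5557, 3016 and 1027. Levels are given as CPM (counts scaled to 1000000 per class and library). Over all libraries these cells held Tnmd, a tendon-specific membrane protein, at 547 CPM against 10.7 in other cells. The transcription factor Scx stood at 96.1 against 3.85, and the matrix gene Comp at 5696 against 858. All of these are markers of the gate, so their excess follows from the gating. Unsupervised clusters split these tenocytes into cluster 1, led by Coch and Saa1, and cluster 3, led by Mstn, Npy and Edil3 itself; the members took no part in the clustering. Cluster 1 held most of the tenocytes of WT (4131) and B6 (564), and cluster 3 most of those of DTR (2193). Pairs of libraries shared between 61 and 76 barcodes, of which 13 to 15 were kept in both. All pools held cells of both sexes: female and male calls among tenocytes were 3423 and 1304 in WT, 1009 and 1401 in DTR, and 390 and 355 in B6. With 1 pooled library per group there is no replicate, so no test between groups was possible; the intervals given are exact 95% intervals that cover counting error only.

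The genes were grouped with results of these libraries in view, so their levels in tenocytes are a description: they were selected on their levels in these same libraries. Edil3, an integrin-binding glycoprotein best known from endothelium and the developing embryo, stood at 2.62 CPM (95% interval 2.27 to 3.02) in tenocytes of WT, 105 CPM (102 to 108) in DTR and 22.6 CPM (20.1 to 25.4) in B6. The 3 intervals lie far apart, with DTR highest. The ratio to WT was 40.1 (34.7 to 46.4) in DTR and 8.62 (7.16 to 10.4) in B6. The WT level was not above that of T cell-like cells, which should lack the gene and stood at 3.76 CPM (1.22 to 8.78) in that library, so these ratios and those within clusters and sexes were taken over background and are not folds over an expression level of WT. In order of ratio, Edil3 was number 1 of 7644 genes with at least 10 CPM in the first comparison and number 13 of 7458 in the second.

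Edil3 was higher within each tenocyte cluster as well as in the whole class. In cluster 1 it stood at 1.34, 44.1 and 15.4 CPM in WT, DTR and B6, and in cluster 3 at 6.35, 132 and 33.0 CPM. The order of the libraries was the same in both clusters, with ratios of 33.0 and 20.8 for DTR. Both sexes showed this order between DTR and WT. Edil3 stood at 76.6 CPM in female and 124 CPM in male tenocytes of DTR, against 2.45 and 2.88 in WT. In B6 the female cells had 36.0 CPM and the male cells 9.60 CPM. Removal of the cell with most Edil3 UMIs from each library left ratios of 41.5 and 8.43.

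When every cell was thinned to 2000 UMIs, an Edil3 UMI was found in 0.414% of WT tenocytes (0.263 to 0.620), 17.7% of DTR tenocytes (16.4 to 19.1) and 3.70% of B6 tenocytes (2.63 to 5.04). T cell-like cells gave 0.781%, 0.613% and 0 of 82 cells, the last of which allows a share of up to 4.399%, and their median depth was 9958, 7921.5 and 9624.5 UMIs against 12947, 12451.5 and 11264 in tenocytes. The share in WT tenocytes thus lies at that background, whereas the interval in DTR lies far above it. In B6 the share lies within what 0 of 82 cells allows, but its level of 22.6 CPM lies above the T cell-like upper bound of 4.37 CPM. Without thinning the tenocyte shares were 2.25%, 47.6% and 12.8%. In DTR the tenth of tenocytes with most Edil3 carried 47.9% of its UMIs.

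Mfge8, lactadherin, the close relative of Edil3, stood at 400, 536 and 351 CPM in tenocytes of WT, DTR and B6. The ratios of 1.34 (1.32 to 1.37) and 0.879 (0.851 to 0.907) are small beside those of Edil3. Female tenocytes stood at 340, 405 and 253 CPM and male tenocytes at 525, 622 and 457 CPM. Within sexes the DTR ratio was nearer to 1, at 1.19 (1.16 to 1.23) in female and 1.18 (1.15 to 1.22) in male cells. The B6 ratio was 0.743 in female and 0.870 in male cells. It was found in 50.9%, 57.8% and 50.0% of thinned tenocytes, against 3.13%, 6.13% and 3.66% of T cell-like cells. Thinned shares depend on level, so those of 50.0% to 57.8% do not mean that the other tenocytes lacked Mfge8. Without thinning it was found in between 92.5% and 95.1% of tenocytes across the libraries. The unthinned shares of Edil3 were 2.25% in WT, 47.6% in DTR and 12.8% in B6. Whether the relatives differed in breadth apart from their level was not tested.

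**Figure D1:**
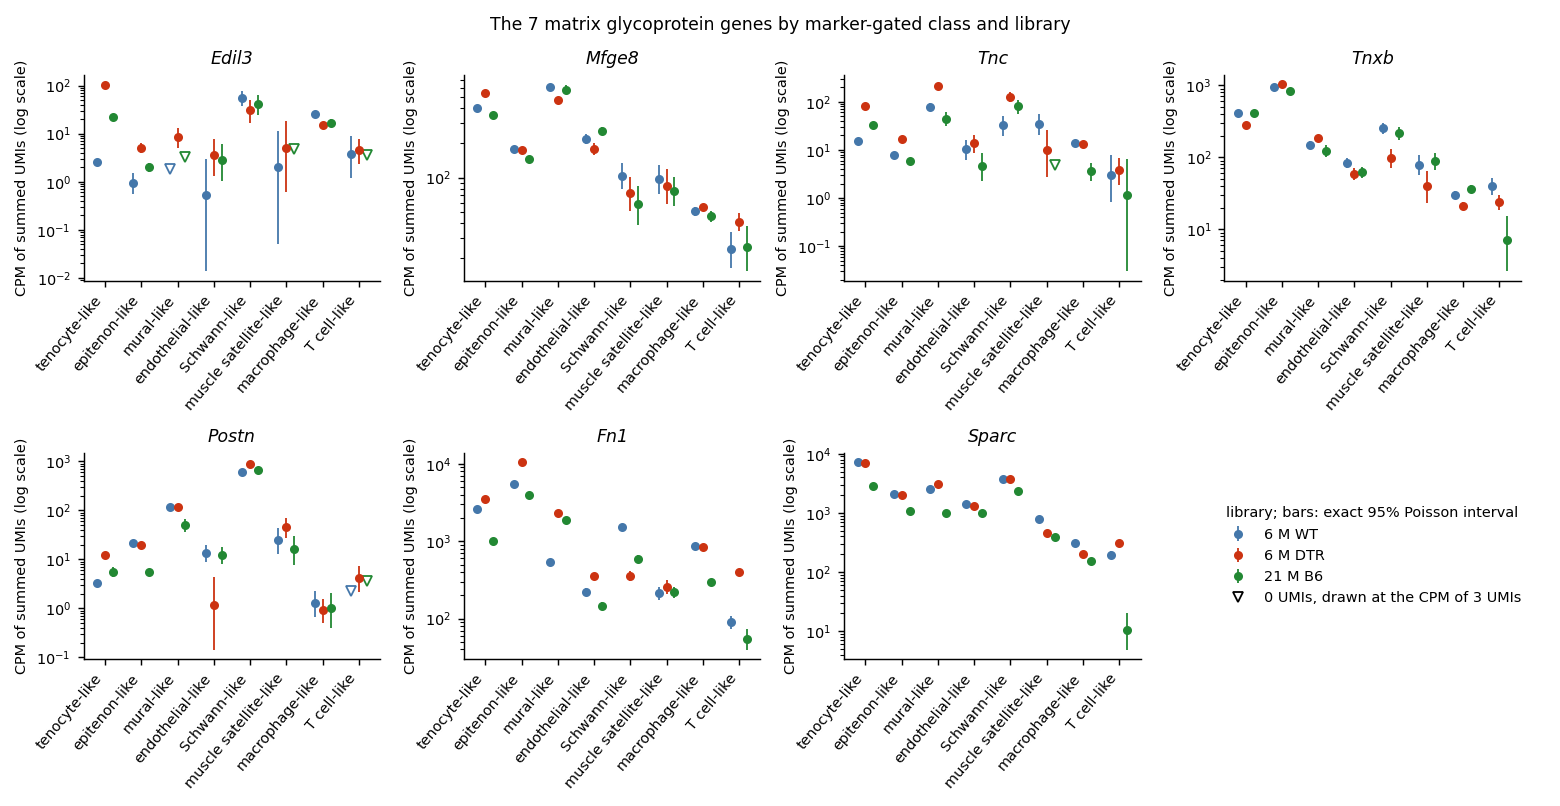
CPM of summed UMIs (log scale) of each of the 7 genes in 8 marker-gated classes, coloured by library, with exact 95% Poisson bars; open triangles mark 0 UMIs, drawn at the CPM of 3 UMIs. Edil3 in tenocyte-like cells runs from 2.62 CPM in WT to 105 CPM in DTR, while Mfge8 in the same cells lies between 351 and 536 CPM.

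Tnc, tenascin-C, stood at 15.2, 82.7 and 32.5 CPM in tenocytes of WT, DTR and B6. It was highest in DTR, with ratios of 5.44 (5.09 to 5.83) and 2.14 (1.91 to 2.40). In cluster 1 its levels were 12.4, 23.5 and 33.2 CPM, and in cluster 3 they were 22.6, 107 and 35.4 CPM. The order of the DTR and B6 libraries thus turned between clusters: the ratio of DTR was 4.73 in cluster 3 and 1.89 in cluster 1, and that of B6 was 1.56 and 2.68. Female and male tenocytes of DTR had 46.4 and 106 CPM of Tnc, against 14.7 and 15.1 in WT. In B6 the ratio was 2.51 in female but 1.66 (1.31 to 2.08) in male cells, and 1.37 in male cells without the top cell of each library. A Tnc UMI was found in 2.34%, 12.8% and 4.28% of thinned tenocytes, against 0, 0.613% and 0 of T cell-like cells.

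Tnxb, tenascin-X, whose loss in people causes a form of Ehlers-Danlos syndrome, was lowest in DTR. It stood at 417 CPM in WT tenocytes, 285 CPM in DTR and 418 CPM in B6, a ratio of 0.684 (0.669 to 0.699) for DTR and 1.00 (0.972 to 1.03) for B6. In cluster 1 its levels were 332, 334 and 308 CPM, and in cluster 3 they were 703, 248 and 530 CPM. The lower level of DTR was thus found in cluster 3, where the ratio was 0.352. It was also found in male and not in female cells. Female tenocytes stood at 383, 379 and 405 CPM, with a DTR ratio of 0.989 (0.959 to 1.02), and male tenocytes at 517, 228 and 447 CPM, with a ratio of 0.441 (0.425 to 0.457). The share of thinned tenocytes with a UMI was 46.8%, 29.3% and 41.9%, against 3.13%, 4.29% and 3.66% of T cell-like cells.

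Postn, periostin, was scarce in tenocytes, with 3.26, 12 and 5.60 CPM in WT, DTR and B6. The ratio for DTR, 3.69 (3.16 to 4.32), rested largely on 1 cell, which held 273 of the 480 Postn UMIs, or 56.9%. That cell lay in cluster 3 and carried 58 UMIs of tenocyte markers and 4 of Schwann markers. Without the top cell of each library Postn stood at 5.19 against 2.52 CPM, a ratio of 2.06 (1.68 to 2.53). It was 5.02 (3.20 to 7.97) in female cells and 0.640 (0.467 to 0.872) in male cells then. The thinned shares, 0.324%, 0.796% and 0.584%, against 0, 0.920% and 0 of T cell-like cells, were not above background in DTR.

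Sparc was found in most thinned tenocytes of each library, and Fn1 in most of those of WT and DTR. Fn1, fibronectin, stood at 2619, 3527 and 1007 CPM in WT, DTR and B6, with ratios of 1.35 (1.34 to 1.36) and 0.385 (0.378 to 0.391). The median per cell was 1788, 2202 and 288 CPM. The tenth of cells with most Fn1 held 37.3%, 41.1% and 59.9% of its UMIs, so that the B6 tenocytes were the most unequal. The top Fn1 cell of B6, with 4.48% of the UMIs, lay in cluster 5, most of whose cells were gated as epitenon-like. Of the tenocytes, 151 of 5557, 109 of 3016 and 81 of 1027 also passed the gate of a second class. The part of such cells in the spread was not tested. Sparc, osteonectin, stood at 7185, 6931 and 2834 CPM, with ratios of 0.965 (0.960 to 0.969) and 0.394 (0.390 to 0.399), and its median per cell was 5049, 5005 and 1799 CPM. Under other ways of processing, the DTR ratio of Sparc ran from 0.887 to 1.28, on both sides of 1. The B6 ratios ran from 0.324 to 0.538 for Fn1 and from 0.358 to 0.558 for Sparc, so each could fall short of 2-fold. In female and male cells of B6 they were 0.443 and 0.358 for Fn1 and 0.365 and 0.445 for Sparc. In cluster 3 only 1 member was more than 2-fold lower in B6. Thinned shares were 85.7%, 91.0% and 49.8% for Fn1 and 97.8%, 98.6% and 90.3% for Sparc. T cell-like cells gave 19.5%, 24.5% and 11% for Fn1 and 25%, 21.5% and 2.44% for Sparc, so the background of both was higher than that of the other members in WT and DTR. Beside the lower levels of B6, its tenocytes had a median mitochondrial share of 5.55% against 2.77% in WT and 2.85% in DTR, and a median of 2582 genes against 3089 and 3108.5. The part of these in the Fn1 and Sparc ratios was not tested; with at most 5% mitochondrial UMIs the log2 ratios of B6 were -1.20 and -1.10.

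**Figure D2:**
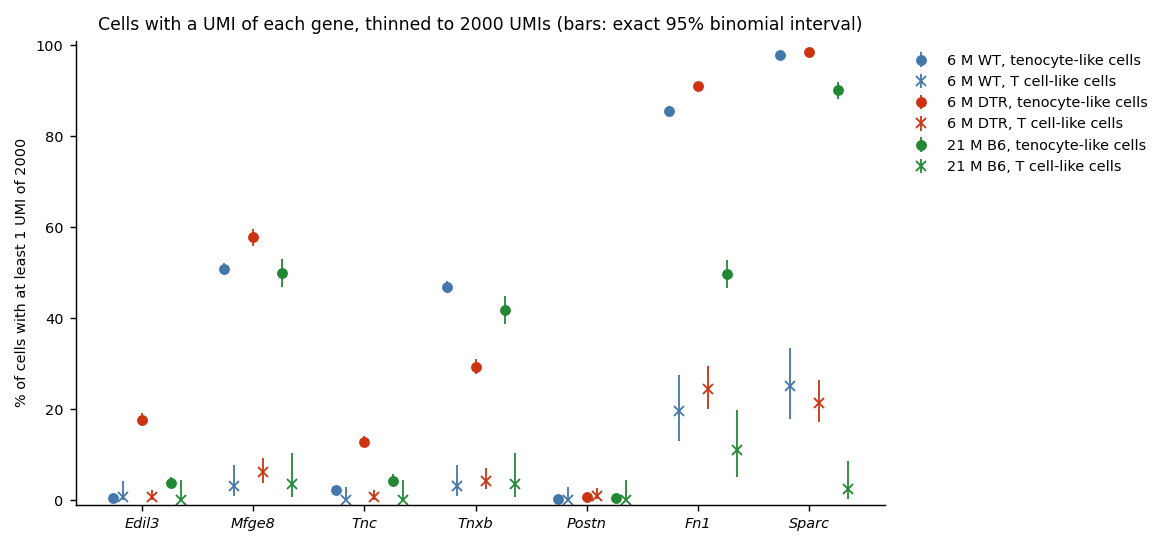
Percent of cells with at least 1 UMI of each gene after thinning to 2000 UMIs, in tenocyte-like cells (circles) and T cell-like cells (crosses) of each library, with exact 95% binomial bars. Edil3 reaches 17.7% and Tnc 12.8% of DTR tenocytes, while Postn stays beside the crosses in each library.

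Across these values, 3 of the 7 genes (Edil3, Tnc and Postn) were more than 2-fold higher in DTR tenocytes and 0 were more than 2-fold lower. Of the 7644 genes tested, 2.24% were higher and 1.44% lower by that measure, 3.68% in all. Without the top Postn cell the count was 2, as Postn then fell under 10 CPM. In B6 tenocytes 6 members reached 10 CPM, of which Edil3 and Tnc were more than 2-fold higher and Fn1 and Sparc more than 2-fold lower. Of the 7458 genes tested, 3.24% were higher and 1.93% lower, 5.18% in all. The choice of the genes used these contrasts, and nothing is read from the counts. The median log2 ratio over all genes tested was 0.04 for DTR and -0.24 for B6. Beside these ratios, the summed level of 9 dissociation and stress genes in tenocytes was 4914, 7840 and 11749 CPM in WT, DTR and B6. The 7 macrophage markers summed to 23.1, 48.8 and 27.7 CPM, the 6 Schwann markers to 29.8, 27.2 and 16.5 CPM, the 8 epitenon markers to 991, 746 and 1078 CPM and the 7 mural markers to 173, 188 and 103 CPM, with 0 of these markers at 0 in any library. The part of these levels in the ratios was not tested.

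**Figure D3:**
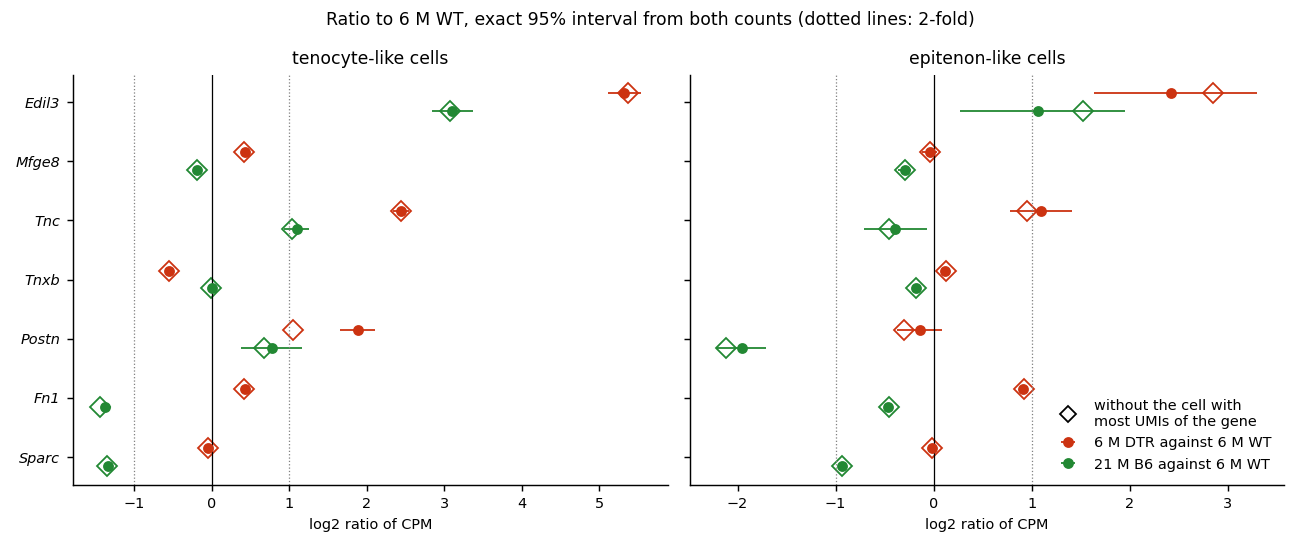
log2 ratio of CPM to WT for each gene in tenocyte-like (left) and epitenon-like (right) cells, for DTR and B6, with exact 95% intervals from both counts; open diamonds leave out the cell with most UMIs of the gene in each library, and dotted lines mark 2-fold. The diamond of Postn in DTR tenocytes lies at 1.04 against 1.88 for all cells, while those of Edil3 in tenocytes stay close to their points. In epitenon-like cells the Edil3 diamonds lie at 2.85 against 2.43 for DTR and 1.52 against 1.07 for B6. These diamonds rest on 11 UMIs in WT, with 0.655, 4.71 and 1.88 CPM in WT, DTR and B6. All of these levels lie under 10 CPM, and Edil3 in the epitenon was not clear of the T cell-like background.

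Pairs of the genes differed in how often they met in the same tenocytes. In DTR, 114 thinned tenocytes held both Edil3 and Tnc where the product of their shares gives 68.3, a ratio of 1.67, and Tnc was found in 21.3% of cells with an Edil3 UMI (17.9 to 25.1) against 11% of cells without one (9.76 to 12.3). Edil3 and Tnxb were found together in 61 cells where 156 were expected, a ratio of 0.390, and Tnxb was found in 11.4% of the cells with Edil3 (8.85 to 14.4) against 33.1% of those without (31.3 to 35). Tnc and Tnxb shared 38 cells where 113 were expected, a ratio of 0.336. Edil3 and Tnc therefore met in more cells, and each met Tnxb in fewer, than independent placing gives, while Edil3 and Mfge8 did so at 1.02 times that number. Spearman's rho across unthinned cells was 0.378 for Edil3 with Tnc, -0.457 for Edil3 with Tnxb and -0.400 for Tnc with Tnxb; the cells share a library and a pool of tendons, so rho is a description.

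Edil3 with Tnc and Edil3 with Tnxb kept their direction within clusters and sexes of DTR. In cluster 3 observed over expected cells stood at 1.44 for Edil3 with Tnc, 0.390 for Edil3 with Tnxb and 0.316 for Tnc with Tnxb. In cluster 1, with 723 cells, the value was 2.21 for the first pair and 0.689 for the second. Edil3 and Tnc were lower there, so 2.21 rests on few cells. Tnc with Tnxb is not given for cluster 1. Female cells gave 1.90, 0.461 and 0.487 for the pairs in the same order, and male cells 1.43, 0.419 and 0.323. Graded by Edil3 count (0, 1, 2, and 3 or more UMIs of 2000, in 2482, 415, 92 and 27 cells), Tnc was found in 11%, 19.3%, 27.2% and 33.3% of cells and Tnxb in 33.1%, 12.3%, 9.78% and 3.70%.

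In WT and B6 the Edil3 pairs rested on few cells. Edil3 and Tnxb met in 5 cells of WT where 10.8 were expected, and in 16 cells of B6 where 15.9 were expected. Whether these differ from the ratio in DTR was not tested. Tnc and Tnxb lay at 0.74 and 0.71 of the expected number in these libraries. The B6 value rests on few cells and differed by sex. Female cells of B6 gave 4 cells where 6.52 were expected (0.613), and male cells 5 where 4.59 were expected (1.09). The median tenocyte held 3 of the 7 genes in WT, 3 in DTR and 2 in B6; 0.414%, 4.01% and 0.779% of tenocytes held 5 or more, and 3.89%, 2.19% and 16.8% held 0 or 1.

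**Figure D4:**
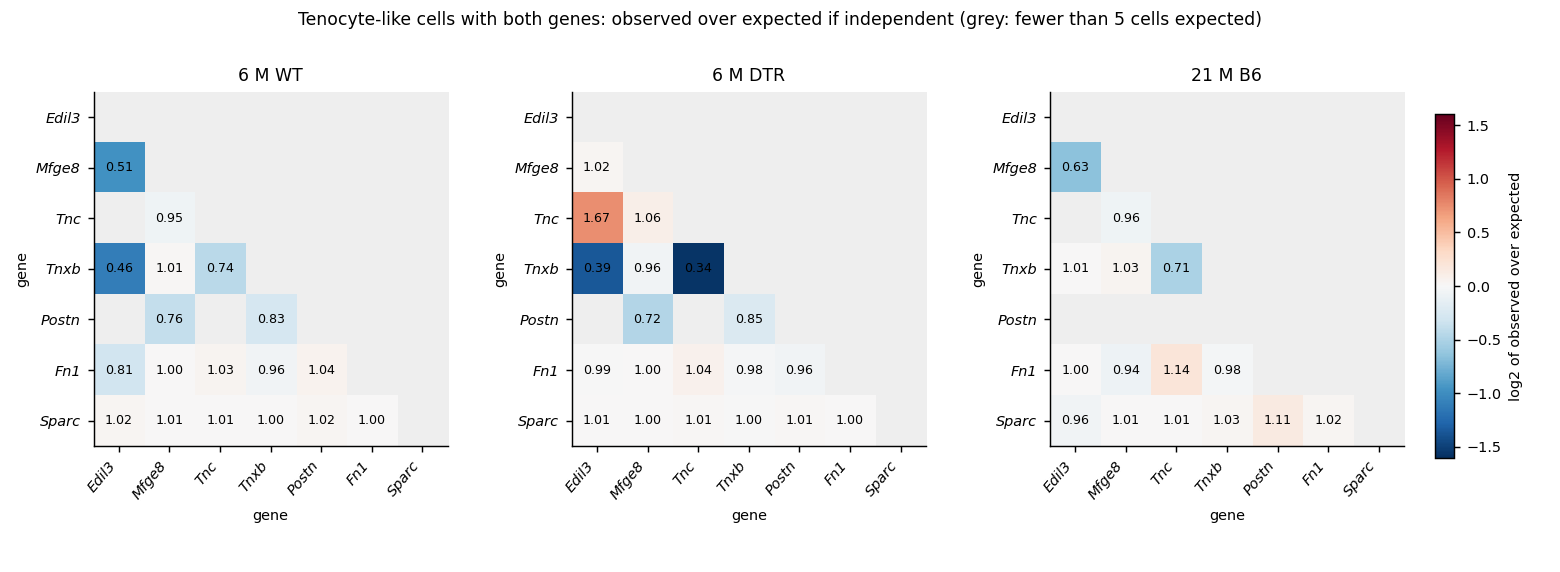
Tenocyte-like cells that hold both genes of a pair, as observed over expected if the genes were placed independently, for each library after thinning to 2000 UMIs; colour is the log2 of the printed ratio and grey marks pairs with fewer than 5 expected cells. In DTR the pair Edil3 and Tnc stands at 1.67 and the pair Tnc and Tnxb at 0.336.

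**Figure D5:**
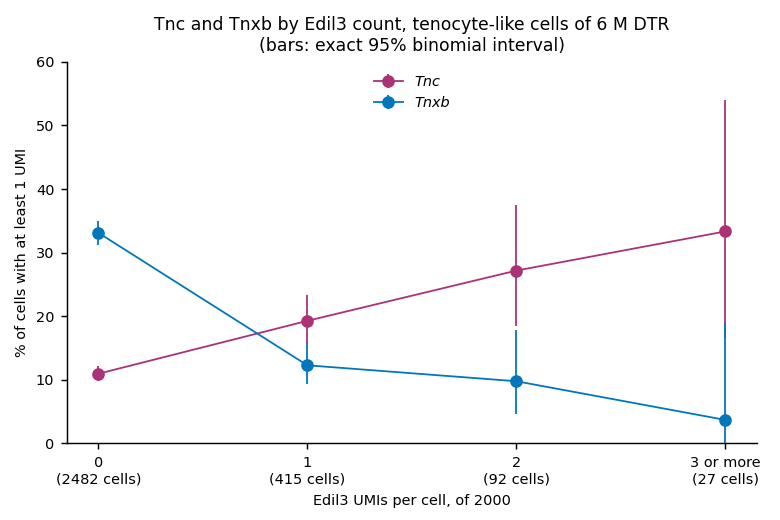
Percent of DTR tenocyte-like cells with a UMI of Tnc or Tnxb, by the number of Edil3 UMIs in the cell (of 2000), with exact 95% binomial bars. Tnc goes from 11% to 33.3% and Tnxb from 33.1% to 3.70% between cells with 0 and with 3 or more Edil3 UMIs.

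The 534 tenocytes of DTR with an Edil3 UMI were compared with the 2482 without, at a median depth of 11213.5 and 12770 UMIs. Tnc stood at 147 against 70.3 CPM (ratio 2.09) and Tnxb at 74.7 against 326 CPM (0.229). Within cluster 3 these ratios were 1.71 and 0.219. Mfge8 (1.15), Fn1 (0.875) and Sparc (1.00) differed little between the same cells. Among 2769 genes with at least 50 CPM in either set, the 10 with the highest ratio were Postn (11.5, but 2.02 without its top cell), the collagenase Mmp13 (4.12), Mstn, the secreted inhibitor of muscle growth (3.98, with 680 against 171 CPM), the bone sialoprotein Ibsp (3.11), the receptor phosphatase Ptprd (2.99), the fibulin Fbln7 (2.73), Crispld1 (2.65), Cthrc1, a secreted protein of collagen-producing cells (2.59), the thrombin receptor F2r (2.46) and the proteoglycan keratocan, Kera (2.38). Without its top cell Postn stood at 8.99 against 4.46 CPM, so it passed the limit of 50 CPM only through that cell. Mstn and Fbln7 are also leading genes of cluster 3, where Edil3 was higher than in cluster 1. The ranking was made over the whole class and not within clusters. Of the 8 tenocyte markers, 5 had a ratio above 1 in the cells with Edil3 and 3 below, from 0.897 for Scx to 2.38 for Kera. Of the 8 epitenon markers, 2 had a ratio above 1 and 6 below, from 0.274 for Krtdap to 1.15 for Inmt. The share of all genes with a ratio above 1 was not taken, so nothing is read from the counts of either marker list. Several of the epitenon markers were near the floor. Inmt stood at 0.309 against 0.269 CPM (ratio interval 0.121 to 5.55). Efemp1, Pi16 and Gdf10 stood at no more than 4.70 CPM, with ratio intervals that include 1.

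Epitenon-like cells, 1069 in WT, 929 in DTR and 2410 in B6, held Tnxb and Fn1 above their tenocyte levels in each library. Tnxb stood at 947, 1030 and 835 CPM. Fn1 stood at 5514, 10411 and 4006 CPM, with a ratio of 1.89 (1.87 to 1.90) for DTR and 0.726 (0.720 to 0.732) for B6. The Fn1 ratio of DTR was 2.05 in the Pi16 subset, 1.72 in the Krtdap subset and 2.56 in the Gdf10 subset, so it was found across the epitenon rather than in a single subset. Cells of cluster 5, led by Clic5 and Col22a1, had the highest Fn1 of these groups, at 21131, 24466 and 19169 CPM.

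Edil3 stayed low in the epitenon, at 0.952, 5.11 (4.03 to 6.40) and 1.99 CPM in WT, DTR and B6. The T cell-like interval reached from 1.22 to 8.78 CPM in WT, from 2.39 to 7.67 CPM in DTR and from 0 to 4.37 CPM in B6, so none of these levels was clear of the background. Tnc stood at 7.79, 16.6 and 5.95 CPM, with a ratio of 2.13 (1.72 to 2.66) for DTR that was 1.93 without the top cell of each library. In female cells the ratio was 1.28 (0.907 to 1.80), with 10.3 against 8.04 CPM, and in male cells 2.43 (1.64 to 3.71), with 16.3 against 6.71 CPM, so the 2-fold difference was found in male cells. Postn stood at 21.8, 19.8 and 5.62 CPM, a ratio of 0.257 (0.216 to 0.306) for B6. Its DTR ratio differed by sex, at 0.245 (0.141 to 0.403) in female cells and 0.992 (0.814 to 1.21) in male cells. The female value came from 18 against 131 UMIs. Sparc was at 2066, 2043 and 1082 CPM and Mfge8 at 177, 173 and 144 CPM. In all, 1 of 6 members with 10 CPM was past 2-fold in DTR, where 1.67% of all genes tested were, and 1 of 5 in B6, where 3.12% were. Across single epitenon cells, Tnxb and Fn1 went together, with rho of 0.418, 0.321 and 0.296 in WT, DTR and B6.

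Macrophage-like cells held Edil3 at 25.4 CPM (22.3 to 28.8) in WT, 15.4 CPM (13.5 to 17.5) in DTR and 16.8 CPM (13.9 to 20.2) in B6. In WT this was above the tenocyte level, and macrophages carried 46.6% of all Edil3 UMIs of that library against 38.6% for tenocytes. In DTR tenocytes carried 88.8% and macrophages 5.02%, and in B6 they carried 53.9% and 22.5%. The macrophage level of WT thus lay above that of the other libraries, whereas in tenocytes it was lowest there, and above the T cell-like interval of 1.22 to 8.78 CPM. The thinned share of macrophages with an Edil3 UMI was 4.10% (2.62 to 6.09), 2.28% and 3.11%, and the top cell of each library held at most 3.39% of the UMIs. Macrophages with low and high MHC class II transcripts had 25.9 and 24.5 CPM in WT, 14.2 and 16.2 CPM in DTR, and 21.7 (17.4 to 26.8) and 10.5 CPM (7.19 to 14.8) in B6. Beside the Edil3 levels, the summed tenocyte markers in macrophages stood at 423, 250 and 107 CPM in WT, DTR and B6. In WT, 23 thinned macrophages held an Edil3 UMI and 538 did not. Of the 8 tenocyte markers, 6 were higher in macrophages with an Edil3 UMI than in those without in WT, and 7 in DTR. The share of all genes that were higher in such macrophages was not taken, so nothing is read from these counts. Fmod stood at 558 against 161 CPM in WT and at 609 against 86.1 CPM in DTR. Fibin was lower in WT, at 10.1 against 26.9 CPM. The WT ratio intervals of Tnmd (0.762 to 3.08) and Scx (0.224 to 7.94) included 1. The part of tenocyte RNA in the macrophage Edil3 level was not tested. None of the 6 members with 10 CPM was past 2-fold in macrophages of DTR, where 2.0% of all genes tested were; in B6, Tnc (ratio 0.259), Fn1 (0.345) and Sparc (0.478) were past it, all of them lower, where 5.92% of all genes tested were. Without the top cell of each library the Sparc ratio was 0.542, short of 2-fold. The tenocyte markers given above were also lowest in macrophages of B6, and T cell-like Sparc stood at 198, 307 and 10.7 CPM; the part of these in the lower levels was not tested.

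Schwann-like cells, 78, 77 and 46 in number, had the highest Postn CPM of the gated classes. It stood at 591, 872 and 666 CPM in WT, DTR and B6 and in 38.5%, 52.6% and 47.8% of thinned cells, far above the T cell-like shares, and the ratios to WT were 1.47 (1.28 to 1.70) and 1.13 (0.963 to 1.32). These few cells carried 22.9%, 23.4% and 40.4% of the Postn UMIs of their library, against 24.5%, 16.0% and 26.7% in the epitenon and 16.4%, 26.1% and 9.22% in tenocytes. Edil3 stood at 55.2 (37.7 to 77.9), 30.4 (17.0 to 50.2) and 41.2 CPM (24.8 to 64.4), intervals that overlap throughout. Tnc was at 32.7, 128 and 80.3 CPM, but a single cell held 73.7%, 39.7% and 64.9% of its UMIs. Fn1 was at 1522, 359 and 594 CPM, and 30.6%, 31.6% and 40.5% of its UMIs lay in a single cell that also passed the gate of a second class. With 13.6% and 19.7% of all genes tested past 2-fold in these few cells, 3 of 7 and 2 of 7 members were past it.

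Mural-like cells, the pericytes and smooth muscle of vessels, numbered 170, 230 and 75. Of these, 25, 24 and 31 also passed the gate of a second class. The 7 endothelial markers summed to 246, 146 and 1035 CPM in the mural-like cells. The part of such mixed cells in the levels below was not tested. Mfge8 stood at 610, 470 and 581 CPM in mural-like cells, Tnc at 79.4, 216 and 44.2 CPM, Postn at 118, 117 and 49.8 CPM and Fn1 at 533, 2308 and 1854 CPM. The Fn1 ratios to WT were 4.33 (4.03 to 4.65) and 3.48 (3.20 to 3.78), and that of Tnc in DTR was 2.71 (2.23 to 3.32). The higher Fn1 of DTR lay in male cells. Female cells had 505, 548 and 3397 CPM of Fn1 in WT, DTR and B6, a DTR ratio of 1.08 (0.944 to 1.24), and male cells 468, 3005 and 975 CPM, a DTR ratio of 6.42 (5.49 to 7.57). The thinned shares did not show this, with 30.4% and 39.1% of female and 47.1% and 42.0% of male cells in WT and DTR. A single cell held 21.5%, 17.4% and 25.8% of the Fn1 UMIs, and the B6 ratio without the top cells was 5.22 in female but 1.61 in male cells. That single cell lay in cluster 5 in DTR and B6, and in WT it passed the gate of a second class. Tnc in DTR had a ratio of 1.94 in female and 3.08 in male cells. The T cell-like level of Fn1 moved beside it in DTR, from 89.5 CPM in WT to 397 CPM, but not in B6, at 54.4 CPM; its part was not tested. Of the 6 members with 10 CPM, 2 were past 2-fold in DTR, where 7.37% of all genes tested were, and 3 in B6, where 15.8% were. Tnc and Postn went together across mural cells, with rho of 0.345, 0.442 and 0.332, and met in 1.73, 2.14 and 3.13 times the expected number of cells. The last value rests on few cells: thinned Postn was found in 0% of 21 female and 5.0% of 40 male mural cells of B6.

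Over 21 profiles of CPM, made from 8 classes in the libraries where they had at least 50 cells, log2(CPM + 1) of each member was correlated with 9869 genes. Profiles of 1 class share cells of 1 kind and libraries share their depth, so r is a description. The most alike genes were Ank (r = 0.81), Ncoa3 and Mrpl27 for Edil3, Sema3c, Pcolce2 and Igfbp6 (each 0.95) for Tnxb, and Fzd3 (0.95), 9330188P03Rik and Col27a1 for Postn. For Mfge8 they were 2310022B05Rik (0.95), Rerg and Mgp, for Tnc Morf4l1 (0.87), Arntl2 and Dync1li2, for Fn1 Anxa8 (0.91), Adgrg2 and Akr7a5, and for Sparc Htra1, Fkbp9 and Pam (the last at 0.94). Between members r was highest for Tnxb with Fn1 (0.82), Tnxb with Sparc (0.78) and Mfge8 with Sparc (0.77), and it was -0.07 for Edil3 with Mfge8.

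The lists below were chosen with earlier results of these data known, and nothing is read from their counts. Of all genes tested in tenocytes, 2.24% were more than 2-fold higher and 1.44% lower in DTR, and 3.24% and 1.93% in B6. Among 25 other matricellular and adhesive glycoproteins, 20 had 10 CPM in tenocytes of DTR or WT. Of these, 4 were more than 2-fold higher in DTR and 0 were more than 2-fold lower. They were Smoc2, a relative of Sparc (ratio 9.33, with 40.3 against 4.32 CPM), Ccn1 (2.67), Ccn2 (2.16) and thrombospondin Thbs1 (2.05), and the median log2 ratio of the list was 0.42 beside 0.04 over all genes. In B6, 4 of 21 were higher, among them Fgl2 (5.95) and Smoc2 (5.26), and 4 were more than 2-fold lower, among them osteopontin, Spp1 (0.229), with a median of 0.36 beside -0.24. Of 19 receptor and related genes, 11 could be compared in DTR; the collagen receptor subunit Itga11 was higher (2.49) and 0 were more than 2-fold lower, with a median of 0.00. In B6, 1 of 12, the syndecan Sdc1, was more than 2-fold lower (0.309).

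Among 18 fibrous matrix partners, 17 could be compared in DTR. Of these, 5 were more than 2-fold higher, the gelatinase Mmp2 (6.35), lumican, Lum (2.72), Col12a1 (2.18), Col3a1 (2.06) and Mmp14 (2.02), and elastin, Eln, was more than 2-fold lower (0.466); the median was 0.39. In B6, Col14a1 (7.47) and Mmp2 (3.01) were higher, and Col1a1 (0.377) and Col1a2 (0.443), the chains of type I collagen, were lower. Of 9 dissociation and stress genes, 0 were past 2-fold in DTR, with a median of 0.44, and 4 were higher in B6, Hspa1b (13.9), Hspa1a (13.7), Fos (2.67) and Atf3 (2.35), with a median of 0.97. Beside the counts of both lists, 2.24% of all genes tested were higher and 1.44% lower in DTR, and 3.24% and 1.93% in B6.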

How the data were processed

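Single cells of pooled FDL tendons were measured with 10x droplet libraries. The authors deposited 1 matrix per library of raw UMI counts per gene and barcode, made with Cell Ranger (version 2.1.1 in the submitters' processing notes, 6.0.1 in the file headers); which genome build and annotation were used is not stated in the sources at hand. Total counts were 148149903, 123918145 and 92707026 UMIs over 15536, 16099 and 12273 barcodes for WT, DTR and B6.

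Barcodes with 1000 to 5000 genes and at most 10% mitochondrial UMIs were kept, as in the study. Cells were gated by marker genes; the scaling rule of the gates was set after the data were seen, and the genes, markers and lists were chosen with earlier results of these data known. Leiden clusters (scanpy 1.11.5, 20 components, resolution 0.5) were made without the 7 genes. Scrublet marked under 0.5% of cells and was taken as not working; cells that also passed the gate of a second class were removed in an alternative. UMIs were summed per class and library and scaled to CPM of all gene counts. Ratios carry exact conditional 95% intervals, CPM exact Poisson and shares exact Clopper-Pearson intervals (scipy 1.17.1). Shares were taken after thinning cells to 2000 UMIs, without the 9, 5 and 1 cells below that depth. Genes with at least 10 CPM in either library were compared. Named beyond the 7 genes were the 3 most alike genes of each over class profiles, the 10 highest genes in Edil3-positive tenocytes, and up to 4 genes at each end of the lists; more were named where 5 passed. Alternatives were other filters, gates, scalings, thinning depths and single-sex cells. The scripts were tested on simulated data. In GENCODE vM21, no gene overlaps a member on the same strand; Tnc and Fn1 each overlap 1 gene, and Tnxb 2 genes, on the other strand.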

Additional observations from a re-analysis of the deposited data

Results flagged for a closer look

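The ratios below lay on opposite sides of 1 in different cells, past 2-fold in at least 1 class each way or in opposite directions by sex; with 1 library per group the difference was not tested in any of them. Postn in DTR against WT had a ratio of 3.69 in tenocyte-like and 0.0874 in endothelial-like cells, the latter from 2 against 25 UMIs and the former mostly from 1 cell. Fn1 in the same libraries had a ratio of 4.33 in mural-like (1.08 in female and 6.42 in male cells) and 0.236 in Schwann-like cells. In B6 against WT, Tnc had a ratio of 2.14 in tenocyte-like and 2.45 in Schwann-like cells but 0.259 in macrophage-like cells. The Schwann-like value came from 37 against 19 UMIs, of which single cells held 24 and 14. The macrophage-like value came from 25 against 129 UMIs, of which single cells held 8 and 10. Without the top cell of each library the tenocyte-like ratio was 2.37 in female and 1.37 in male cells. In the same comparison Fn1 had a ratio of 3.48 in mural-like cells and 0.385, 0.345 and 0.391 in tenocyte-like, macrophage-like and Schwann-like cells. Of the 75 mural-like cells of B6, 31 also passed the gate of a second class.

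Postn in tenocyte-like cells differed between cells called female and male: the ratio for DTR was 24.1 in female and 0.639 in male cells, and that for B6 was 10.5 and 0.261. The WT level behind these ratios was 0.969 CPM in female and 9.41 CPM in male cells. One female cell of DTR held 273 of the Postn UMIs there; without the top cell of each library the female ratios were 5.02 for DTR and 8.68 for B6, and the male ratios 0.640 and 0.221.

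Among barcodes outside the filter, taken over all classes, Edil3 also stood above WT in DTR. In barcodes with over 5000 genes it was at 22.8 CPM against 4.63 CPM, and in those with 1000 to 5000 genes and over 10% mitochondrial UMIs at 48.6 CPM against 17.7 CPM. The B6 ratios were 1.02 (0.745 to 1.38) and 0.700 (0.364 to 1.48). In barcodes of these sets that passed the tenocyte gate, WT, DTR and B6 stood at 4.10, 57.7 and 9.83 CPM, and at 12.5 (from 2 UMIs), 134 and 28.5 CPM. The mix of classes in these sets was not compared.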

How the results depend on the processing

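No paired analysis was possible because each group held 1 library; no library could be left out for the same reason. The log2 ratio of Edil3 in DTR tenocytes, 5.32, was 4.96 in female cells, and 5.04 and 4.38 in clusters 1 and 3 (chosen after seeing the data, as was leaving out the top cell of a gene). That of B6, 3.11, was 2.74 as a mean over cells, 3.88 in female and 1.74 in male cells, and 3.53 and 2.38 in the clusters. The number of members past 2-fold in B6 was 2 in male cells in place of 4. The share of DTR tenocytes with Edil3, 17.7%, was 10.1% at 1000 UMIs, 33.4% at 5000, 47.6% without thinning and 3.95% when 2 UMIs were required. The log2 ratio of Postn in DTR tenocytes, 1.88, was -0.65 in male cells and -1.0 in cluster 1. The observed over expected number of WT tenocytes with Edil3 and Tnc, and with Edil3 and Postn, was 0 when 2 UMIs were required. Of 194 alternative values of tenocyte log2 ratios, 118 moved by more than their counting interval and 2 reversed; of 441 for pairs, 43 moved and 2 reversed. Subtracting the T cell-like level left no Edil3 value in WT tenocytes, so no ratio was given there. Depth limits Edil3 and Postn in classes with under 100 cells.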

Other observations

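Cells of cluster 8, a small cluster without a gated class led by Sfrp5 and Apod (107, 39 and 23 cells in WT, DTR and B6), held Postn at 277, 253 and 337 CPM and Tnc at 106, 77 and 79.1 CPM, above the tenocyte and epitenon levels of both genes in WT. Across mural-like cells Sparc and Postn had a rho of 0.448, 0.436 and 0.207 in WT, DTR and B6, and across tenocyte-like cells Mfge8 and Sparc had 0.297, 0.305 and 0.245. In barcodes with under 1000 genes, taken over all classes, Edil3 stood at 1.76, 8.19 and 2.72 CPM in WT, DTR and B6.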
